A study of Mus musculus with 7 samples.

Results

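Foxl2, Runx1, Nr5a2, Esr1, Esr2, Irx3, Irx5 and Klf4 are 8 genes for transcription factors and nuclear receptors of the granulosa lineage, taken by symbol from the 31053 genes of the deposited matrices. Their RNA was followed in single cells of wild-type, untreated C57BL/6J mice, with 7 libraries of 1 age each, from whole gonads at E11.5 over fetal ovaries (E12.5 to E18.5) to ovaries of newborn (P1) and 5-day-old (P5) pups. The labels give no replicate, so nothing was tested, and every interval in parentheses is a 95% interval for counting error that leaves out variation between animals and preparations. The values are counts of unique molecular identifiers (UMIs) from 3′ droplet libraries. Of 52542 cell barcodes the 50823 with at least 200 detected genes were kept, and the median depth of a library lay between 6349 and 11060 UMIs per cell.

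Follicles are built from an oocyte and the flat pregranulosa cells around it, and pregranulosa cells become granulosa cells when the follicle starts to grow. Foxl2, a forkhead factor, and Runx1, a Runt-domain factor, are known for keeping fetal supporting cells on the female path. Nr5a2 (LRH-1) and Esr2 (estrogen receptor beta) are nuclear receptors that granulosa cells need for ovulation, whereas Esr1 (estrogen receptor alpha) is best known from theca, stroma and surface epithelium. Irx3 and Irx5 are neighbouring homeobox genes of pregranulosa cells that support oocyte survival. Klf4 is a zinc-finger factor of epithelia that is also induced rapidly by stimulation.

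Pregranulosa cells were taken as cells with at least 3 UMIs of Wnt6 and Kitl together, 15721 cells in all. At E11.5 the paper takes Wnt6-positive cells as likely bipotential precursors, of Sertoli or pregranulosa cells. For that library the name pregranulosa stands for the gate alone. They were divided by Gng13, a gene for a G protein gamma subunit that the study used to follow pregranulosa cells derived from the surface epithelium. Cells with at most 1 Gng13 UMI are called Gng13-low (8336 cells) and cells with at least 3 are called Gng13-high (6454 cells). Stroma was gated on Nr2f2 and Col1a1 (14089 cells), epithelium on Upk3b and Krt19 (496 cells) and germ cells on Ddx4 and Dazl (4147 cells). Each needed at least 3 UMIs of its genes together, Wnt6 and Kitl together under 3, and no other gate passed. Pregranulosa cells were kept whatever other gate they passed. At P5, 199 of them also passed the epithelial gate, beside 60 cells in epithelium, and at E11.5 it was 33 beside 163. The stromal gate was also passed by 133 of 344 pregranulosa cells at E11.5 and 209 of 1649 at E12.5. It was passed by 756 of 4426 at E16.5 and 136 of 1821 at P5. No member entered a gate. Levels are UMIs of a gene per 1000000 UMIs of the pooled cells (CPM), and they were compared between groups of cells and not between genes, since gene length and 3′ capture were not corrected. Groups under 30 cells have no ratio, which concerns Gng13-high cells at E11.5 (17 cells), epithelium at E16.5 (16 cells) and at E18.5 (18 cells), and germ cells at E11.5 (9 cells).

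Markers outside the gates were used to check the classes. Of 4 germ cell markers 3 or 4 were highest in germ cells in each library, and all 4 stromal markers were highest in stroma from E12.5 on and 2 at E11.5. Of 6 pregranulosa markers 3 to 5 were highest in pregranulosa cells in the libraries up to P1, but 1 at P5. Gng13-high cells carried epithelial markers, by the sum of Krt7, Krt18, Lgals7 and Aldh1a2. At P5 this sum was 4619 CPM in them, beside 4955 in epithelium and 486 in Gng13-low cells. At E12.5 it was 2130 CPM in Gng13-high cells, 1534 in Gng13-low cells and 782 in epithelium. At E14.5 it was 2019, 1670 and 1720 in that order, so the sum did not set epithelium apart at either age. Counted singly, 3 of these 4 markers were highest in epithelium at E12.5 and also 3 at E14.5, against pregranulosa cells as a whole, stroma and germ cells. The share of Gng13-high cells that also passed the epithelial gate was 4.36% at E12.5, 35.3% at E16.5 and 57.8% at P5. At the late ages the name pregranulosa thus goes partly against the markers of Gng13-high cells. Y-linked UMIs were found in 38.1% of cells in the pregranulosa gate at E11.5, where sexes were not separated by label, and in 35.2% of the Gng13-low ones. They were also found in 8.37% (138 cells) of pregranulosa cells in the E12.5 library, which is labelled ovary. In all, 907 cell barcodes were found in more than 1 library. The E16.5 library shared 0 to 3 with each other library, whereas the other pairs of libraries shared 20 to 131. Why E16.5 stood apart was not tested, and its age and library cannot be told apart.

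Foxl2 (ENSMUSG00000050397, chromosome 9, 98955288 to 98958543, with all positions on GRCm38) rose with age in Gng13-low cells, with a lower value at E18.5 than in the E16.5 library. In Gng13-high cells it was lower in each library compared, though higher there from E16.5 on than at E12.5 and E14.5. Gng13-low cells had 3.001 CPM at E11.5, 49.5 CPM at E12.5, 91.4 CPM at E14.5, 298 CPM at E16.5, 207 CPM at E18.5, 348 CPM at P1 and 378 CPM at P5. Gng13-high cells had 42.2 CPM at E12.5, 31.0 CPM at E14.5, 93.2 CPM at E16.5, 51.5 CPM at E18.5, 109 CPM at P1 and 92.8 CPM at P5. The Gng13-low level was highest at P5 and then, in order, at P1, E16.5, E18.5, E14.5, E12.5 and E11.5, and each step exceeded counting error, whereas E16.5 and P5 could not be separated in Gng13-high cells. The ratio of Gng13-low to Gng13-high was 1.17 at E12.5 (interval 1.02 to 1.35), 2.95 at E14.5 (interval 2.67 to 3.27), 3.19 at E16.5 (interval 3.06 to 3.34), 4.01 at E18.5 (interval 3.55 to 4.54), 3.19 at P1 (interval 2.91 to 3.51) and 4.08 at P5 (interval 3.69 to 4.51), so the interval lay above 1 in all 6 libraries and the ratio was past 2 in 5.

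**Figure D1:**
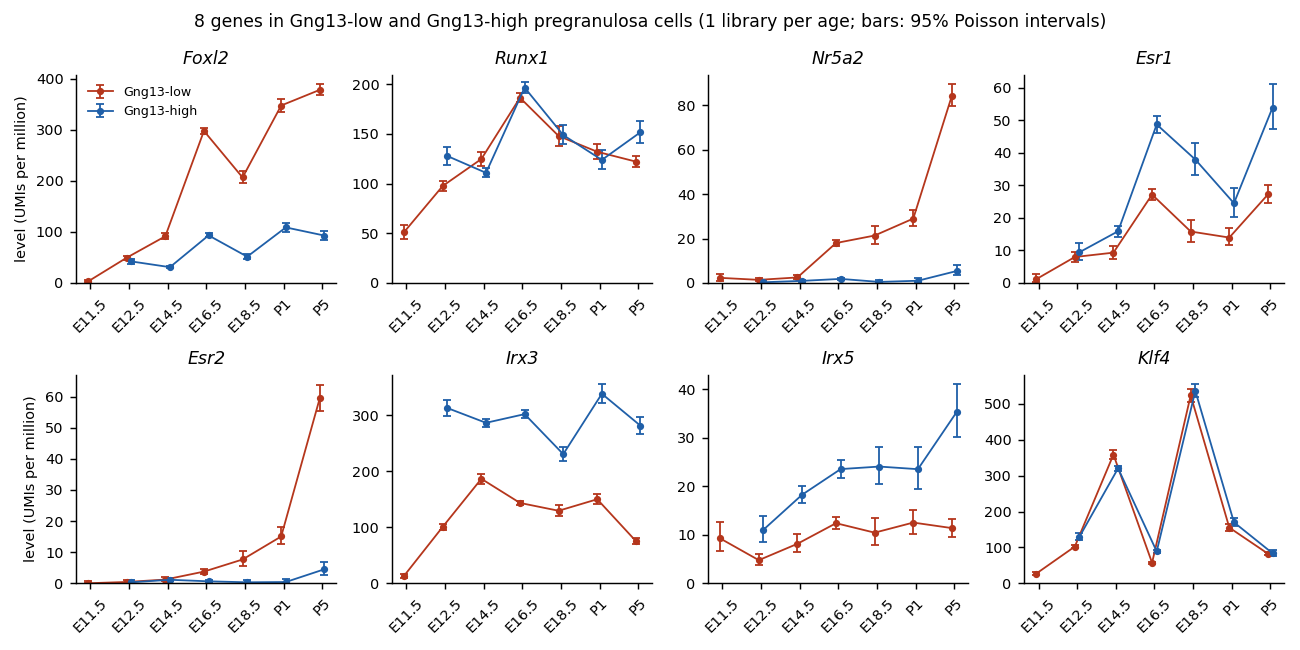
Level of each of the 8 genes (vertical axis, CPM) by age (horizontal axis) in Gng13-low and Gng13-high pregranulosa cells, with 95% Poisson intervals and 1 library per point. Foxl2 reached 378 in Gng13-low and 92.8 in Gng13-high cells at P5, Nr5a2 and Esr2 climbed to 84.4 and 59.5 in Gng13-low cells, Irx3 and Irx5 were higher in Gng13-high cells in each library from E12.5 on, and Klf4 peaked at E14.5 and E18.5 in both groups.

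Part of the late gap moved with the epithelial gate. Within Gng13-high cells, Foxl2 was at 24.7 CPM in cells that passed the gate and 170.5 in those that did not at P1, and at 32.6 and 247 at P5. With such cells left out of both groups the Foxl2 ratio was 2.08 at P1 and 1.54 at P5, below 2-fold at P5. In the paper, clusters of the pathway from the surface epithelium gained Foxl2 at P1. They were nearly level there and at P5 with clusters of the other pathway. By the number of Gng13 UMIs in a cell at P5, Foxl2 was at 374 CPM with 0, 398 with 1, 311 with 2, 323 with 3 to 4 (64 cells) and 56.0 with 5 or more (249 cells). The drop therefore lay above 4 Gng13 UMIs, in cells with a median of 12930 UMIs against 8675 in those with 3 to 4.

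At E12.5 the small difference grew without cells that carried a Y-linked or a Pax8 UMI, Pax8 being a marker of rete and mesonephric tubules. Foxl2 was then at 63.1 CPM in Gng13-low and 43.0 in Gng13-high cells, a ratio of 1.47 (1.26 to 1.71). Y-linked UMIs were in 12.1% of Gng13-low and 1.74% of Gng13-high cells at that age. The paper gives a larger Foxl2 difference at E12.5 between its clusters of the pathways. Its cluster assigned to the surface epithelium had much lower levels of a set of genes that includes Runx1 and also Wnt6 and Kitl, the gate genes here. Whether the gate and the Gng13 split separate the pathways at E12.5 was not tested.

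The share of cells with a Foxl2 UMI rose with the level. At a fixed depth this share follows largely from the level, so it does not tell more positive cells from more UMIs per cell. After each cell was thinned to 2000 UMIs, a Foxl2 UMI was left in 0.946% of Gng13-low cells at E11.5, 16.6% at E14.5 and 51.7% at P5. Unthinned, the P5 share was 90.6% at a median depth of 8440 UMIs. Erythroid cells, which should lack Foxl2, had a thinned share of 0.730% and an unthinned share of 5.40% in the P5 library, at a median of 8742 UMIs.

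Foxl2 RNA was found in stroma as well, the interstitial cells between follicles. The paper's staining of the proteins at E12.5 and E18.5 found no overlap of Nr2f2 and Foxl2, whereas the values here are RNA. The stromal gate sums Nr2f2 and Col1a1, so a cell could pass it without Nr2f2. The ages stated for that staining leave out P1 and P5. Stroma had 0.0413 CPM at E11.5, 0.825 CPM at E12.5, 5.80 CPM at E14.5, 27.2 CPM at E16.5, 54.0 CPM at E18.5, 76.2 CPM at P1 and 164 CPM at P5. The level was higher at each later age, and the excess of pregranulosa cells over stroma was smaller late than early, though not in steady steps. The ratio was 59.2 (32.9 to 119) in the E12.5 library, 8.40 (6.17 to 11.8) in the E14.5, 7.64 (7.05 to 8.29) in the E16.5, 2.37 (2.10 to 2.69) in the E18.5, 3.397 (3.16 to 3.65) in the P1 and 1.86 (1.77 to 1.95) in the P5 library, so that P1 lay above E18.5. A Foxl2 UMI was in 51.5% of P5 stromal cells, and in 25.8% (24.0 to 27.6) after thinning. In stroma without any Wnt6 or Kitl UMI the P5 level was 159.8 CPM, and 160.3 when the cells with the highest doublet scores were left out too.

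Stromal cells were also divided by a Foxl2 UMI. Both parts passed the stromal gate with Wnt6 and Kitl together under 3 UMIs, so their likeness was partly set by the gate. A cell can hold Foxl2 RNA without a counted UMI, so the split does not separate cells with and without Foxl2. At P5 stromal cells with a Foxl2 UMI lay nearer to other stroma than to pregranulosa cells for the genes given here except Esr1. Some of these genes differed between the stromal cells. Pdgfra was at 159 CPM in the 1247 stromal cells with a Foxl2 UMI, 168 in the 1176 without and 10.4 in Gng13-low pregranulosa cells. Col3a1, a collagen gene of stroma, was at 1643, 2512 and 235 in that order. Fst, the activin antagonist follistatin of pregranulosa cells, was at 12.6, 5.63 and 419 in the same order. Among the members, Irx3 was at 2.44, 1.09 and 75.5, Nr5a2 at 2.81, 1.56 and 84.4, and Esr2 at 10.8, 5.78 and 59.5. Esr1 went the other way, at 35.18, 53.15 and 27.2, and lay nearer to Gng13-low cells. At E14.5 the 38 stromal cells with a Foxl2 UMI lay further from the other stroma for Fst, Runx1 and Pdgfra. Fst was there at 95.3 CPM with Foxl2, 10.6 without and 976 in Gng13-low cells, Runx1 at 77.6, 16.1 and 125, and Pdgfra at 45.9, 94.4 and 8.67. Irx3 was at 17.6 with Foxl2, on 5 UMIs, and 4.42 without.

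**Figure D2:**
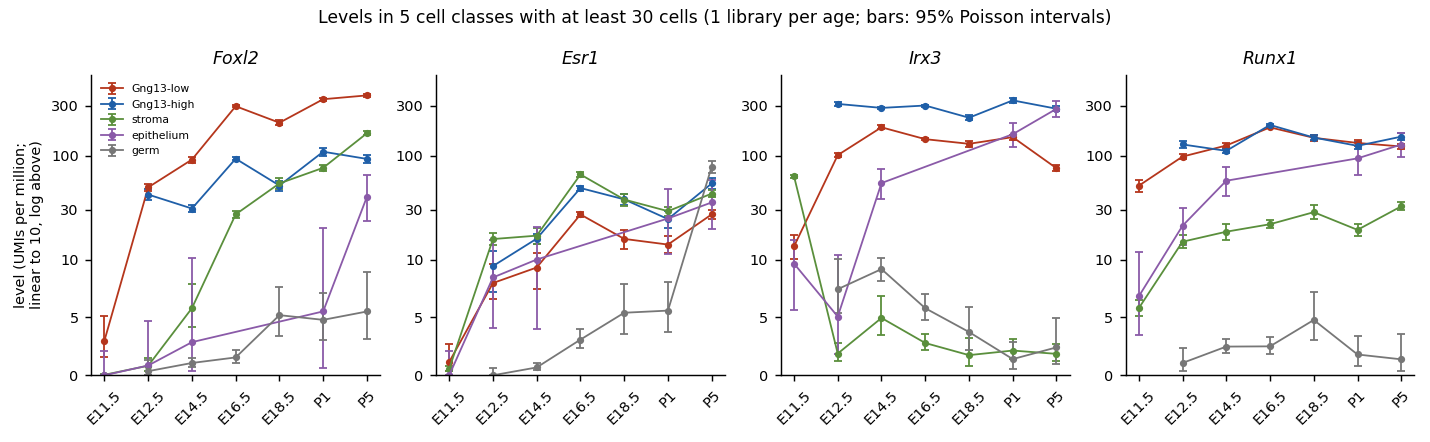
Levels of Foxl2, Esr1, Irx3 and Runx1 (vertical axis, CPM) by age in the cell classes, with 95% Poisson intervals and groups of at least 30 cells drawn, so that the epithelium line skips E16.5 and E18.5. Foxl2 climbed in stroma from 0.0413 at E11.5 to 164 at P5, and Esr1 reached 78.2 in germ cells at P5. Irx3 in the stromal gate was at 63.3 at E11.5 and 1.88 at E12.5, where the gate may hold other cells.

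Runx1 (ENSMUSG00000022952, chromosome 16, 92601466 to 92826149) was shared by both pregranulosa groups, among cells that passed the gate on Wnt6 and Kitl. Gng13-low cells had 51.2 CPM at E11.5, 97.7 CPM at E12.5, 125 CPM at E14.5, 186 CPM at E16.5, 148 CPM at E18.5, 132 CPM at P1 and 122 CPM at P5, and P1, E14.5 and P5 did not differ in that order beyond counting error. The Gng13-high levels were 127.8 CPM at E12.5, 111 CPM at E14.5, 197 CPM at E16.5, 149 CPM at E18.5, 124 CPM at P1 and 152 CPM at P5. Both groups were highest in the E16.5 library, whose age and library cannot be told apart. The ratio of Gng13-low to Gng13-high lay between 0.764 (0.701 to 0.834) in the E12.5 and 1.12 (1.05 to 1.21) in the E14.5 library, and at E18.5 it was 0.994 (0.905 to 1.09). In the paper, Runx1 belongs to the genes that were much lower at E12.5 in the cluster assigned to the surface epithelium. The gate here leaves out cells low in Wnt6 and Kitl, so these are not the same groups of cells.

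Outside pregranulosa cells, Runx1 increased in epithelium. Its level there was 6.82 CPM at E11.5, 21.1 CPM at E12.5, 57.2 CPM at E14.5, 93.9 CPM at P1 and 127.5 CPM at P5, and the ratio of pregranulosa cells to epithelium went from 8.30 (4.67 to 16.3) in the first of these libraries to 1.01 (0.772 to 1.35) in the last. The pregranulosa cells in these ratios include cells that also passed the epithelial gate. Stroma lay between 5.80 and 32.5 CPM. Immune cells, in which Runx1 is a blood lineage factor, had 66.3 CPM at P1 and 215 at E16.5, the lowest and highest of their 7 values.

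Nr5a2 (ENSMUSG00000026398, chromosome 1, 136842571 to 136960448) and Esr2 (ENSMUSG00000021055, chromosome 12, 76120419 to 76177259) rose late and on the Gng13-low side. The sequences before their starts are shown because these genes moved together. Each run is the 250 bases before a RefSeq start on GRCm38.p6, 5′ to 3′ along the minus strand, and capitals mark a Runx core motif. Nr5a2 has windows at chr1:136960449-136960698 and chr1:136953631-136953880, and the Esr2 window is chr12:76177260-76177509. None of them overlaps an annotated exon.
Nr5a2, first start: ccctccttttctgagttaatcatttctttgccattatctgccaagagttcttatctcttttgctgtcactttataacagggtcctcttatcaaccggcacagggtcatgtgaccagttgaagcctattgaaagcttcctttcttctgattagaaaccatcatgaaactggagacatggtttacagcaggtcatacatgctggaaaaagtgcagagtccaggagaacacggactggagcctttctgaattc
Nr5a2, second start: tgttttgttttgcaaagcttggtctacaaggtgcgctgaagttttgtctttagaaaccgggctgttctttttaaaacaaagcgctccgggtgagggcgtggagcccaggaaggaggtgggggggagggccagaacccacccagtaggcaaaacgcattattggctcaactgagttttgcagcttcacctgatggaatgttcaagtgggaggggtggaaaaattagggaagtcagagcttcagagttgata
Esr2: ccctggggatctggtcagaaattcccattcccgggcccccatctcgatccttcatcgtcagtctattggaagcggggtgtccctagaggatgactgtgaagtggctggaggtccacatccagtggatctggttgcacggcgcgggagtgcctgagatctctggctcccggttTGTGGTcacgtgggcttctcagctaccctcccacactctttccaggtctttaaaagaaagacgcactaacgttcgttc

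In the windows of the 7 members with an entry, both strands were searched for the Runx core TGTGGT, the forkhead motif GTAAACA, the nuclear receptor half-site AAGGTCA and the Klf box CCACACCC. The single match was the Runx core of Esr2, 78 bases before the start. Of 32851 promoters of that length 14% hold TGTGGT, 3.17% GTAAACA, 4.08% AAGGTCA and 3.2% CCACACCC. A match or its absence describes letters and says nothing about binding. Irx5 has no entry.

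Gng13-low cells had 2.31 CPM at E11.5, 1.40 CPM at E12.5, 2.49 CPM at E14.5, 17.99 CPM at E16.5, 21.4 CPM at E18.5, 29.0 CPM at P1 and 84.4 CPM at P5 of Nr5a2. In Gng13-high cells the levels were 0.315 CPM at E12.5, 0.942 CPM at E14.5, 1.84 CPM at E16.5, 0.468 CPM at E18.5, 1.004 CPM at P1 and 5.37 CPM at P5. Neighbours in rank among the first 3 ages of the Gng13-low group, and E16.5 and E18.5, could not be separated by counting error, and the level at P5 was the highest of all. The ratio of Gng13-low to Gng13-high was 4.45 at E12.5 (interval 1.08 to 39.2), 2.64 at E14.5 (interval 1.40 to 5.02), 9.80 at E16.5 (interval 7.33 to 13.3), 45.6 at E18.5 (interval 15.3 to 224), 28.9 at P1 (interval 12.2 to 89.8) and 15.7 at P5 (interval 10.6 to 24.4). Several of these rest on few molecules, with 2 UMIs in Gng13-high cells at E12.5 and 3 at E18.5.

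Esr2 gave 0 UMIs in Gng13-low cells at E11.5 and then 0.420 CPM at E12.5, 1.19 CPM at E14.5, 3.75 CPM at E16.5, 7.64 CPM at E18.5, 15.1 CPM at P1 and 59.5 CPM at P5. Among Gng13-high cells it was at 0.315 CPM at E12.5, 1.12 CPM at E14.5, 0.624 CPM at E16.5, 0.312 CPM at E18.5, 0.402 CPM at P1 and 4.51 CPM at P5. The groups could not be separated at E12.5 and E14.5, and the Gng13-low level was higher from E16.5 on, with ratios of 6.005 at E16.5 (interval 3.603 to 10.6), 24.5 at E18.5 (interval 6.39 to 209), 37.5 at P1 (interval 10.2 to 313) and 13.2 at P5 (interval 8.58 to 21.4). Without cells that pass the epithelial gate the P5 ratio of Esr2 was 4.14 and that of Nr5a2 7.95, smaller and still past 2-fold.

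By cells, a thinned UMI of Nr5a2 was in 14.6% (12.8 to 16.53) of Gng13-low cells at P5 and of Esr2 in 10.2% (8.66 to 11.9). Gng13-high cells had 1.60% and 1.92%. The unthinned shares in Gng13-low cells were 39.6% and 34.4%. In erythroid cells of that library both unthinned shares were 0.719%. The shares were close in Gng13-low cells with and without a thinned Foxl2 UMI, with Nr5a2 in 14.1% and 15.1% and Esr2 in 9.45% and 10.98%. Thinning took the Foxl2 UMI from many cells that held it, so this split does not separate cells with and without Foxl2. No conclusion on a link with Foxl2 can be drawn from it.

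At P5 both receptors were higher in pregranulosa cells than in stroma, epithelium and germ cells, but this did not hold at each earlier age. Nr5a2 was at 12.4 CPM in germ cells at E12.5, 4.41 at E14.5 and at most 2.995 at later ages, and the ratio of pregranulosa to germ cells was 0.0860 (0.0517 to 0.138) in the first and 0.312 (0.218 to 0.438) in the second of these libraries. In epithelium Nr5a2 was at 10.8 CPM at E11.5, against 2.14 in pregranulosa cells. Esr2 was higher in stroma than in pregranulosa cells at E14.5, with 2.83 against 1.23 CPM, and at E18.5, with 6.09 against 3.77. At E12.5 epithelium had 2.54 CPM of Esr2 on 3 UMIs, against 0.400 in pregranulosa cells. Stromal Esr2 reached 8.57 at P5, where pregranulosa cells exceeded stroma 5.21-fold (4.31 to 6.33).

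Esr1 (ENSMUSG00000019768, chromosome 10, 4611593 to 5005614) went the other way from Esr2. Gng13-low cells had 1.15 CPM at E11.5, 7.98 CPM at E12.5, 9.32 CPM at E14.5, 27.2 CPM at E16.5, 15.8 CPM at E18.5, 13.9 CPM at P1 and 27.2 CPM at P5, with P5 and E16.5 level with each other. In the Gng13-high group Esr1 was at 9.44 CPM at E12.5, 15.9 CPM at E14.5, 48.7 CPM at E16.5, 37.9 CPM at E18.5, 24.5 CPM at P1 and 53.9 CPM at P5. The ratio of Gng13-high to Gng13-low was 1.18 at E12.5 (interval 0.851 to 1.63), 1.71 at E14.5 (interval 1.34 to 2.18), 1.79 at E16.5 (interval 1.65 to 1.95), 2.40 at E18.5 (interval 1.88 to 3.09), 1.76 at P1 (interval 1.35 to 2.29) and 1.98 at P5 (interval 1.68 to 2.33), with the interval above 1 in 5 of 6 libraries and 1 past 2-fold.

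Stroma held at least as much Esr1 as pregranulosa cells from E12.5 on. Its levels were 15.8 CPM at E12.5, 16.99 CPM at E14.5, 65.8 CPM at E16.5, 37.8 CPM at E18.5, 29.2 CPM at P1 and 43.1 CPM at P5. The ratio of pregranulosa cells to stroma lay between 0.550 (0.450 to 0.671) in the E12.5 and 0.816 (0.666 to 1.01) in the E14.5 library, where the interval included 1.

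Germ cells gained Esr1 at P5. They had 0 UMIs at E12.5 and then 0.676 CPM at E14.5, 3.08 CPM at E16.5, 5.41 CPM at E18.5, 5.59 CPM at P1 and 78.2 CPM at P5, the last on 227 UMIs in 55 cells. The median depth of these cells was 58051 UMIs, and 63.6% of them had an Esr1 UMI, or 10.9% (4.11 to 22.2) after thinning, against 0.730% of erythroid cells. The other 7 members were at or under 5.51 CPM in P5 germ cells.

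Irx3 (ENSMUSG00000031734, chromosome 8, 91798525 to 91802067) and Irx5 (ENSMUSG00000031737, chromosome 8, 92357625 to 92376286) were higher in Gng13-high cells in all 6 libraries compared. Irx3 in Gng13-low cells was at 13.4 CPM at E11.5, 101 CPM at E12.5, 187 CPM at E14.5, 144 CPM at E16.5, 129.6 CPM at E18.5, 150.2 CPM at P1 and 75.5 CPM at P5. Its Gng13-high levels were 313 CPM at E12.5, 287 CPM at E14.5, 302 CPM at E16.5, 231 CPM at E18.5, 339 CPM at P1 and 282 CPM at P5. The lowest Gng13-high library lay above the highest Gng13-low one. The ratio of Gng13-high to Gng13-low was 3.10 at E12.5 (interval 2.90 to 3.32), 1.54 at E14.5 (interval 1.46 to 1.62), 2.10 at E16.5 (interval 2.03 to 2.18), 1.78 at E18.5 (interval 1.63 to 1.95), 2.25 at P1 (interval 2.09 to 2.43) and 3.73 at P5 (interval 3.44 to 4.05). At P5 Irx3 rose with the number of Gng13 UMIs, from 67.4 CPM with 0 and 116 with 1 over 196 with 2 and 217 with 3 to 4 to 292 with 5 or more.

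Irx5 had 9.23 CPM at E11.5, 4.76 CPM at E12.5, 8.13 CPM at E14.5, 12.4 CPM at E16.5, 10.4 CPM at E18.5 and 11.4 CPM at P5 in Gng13-low cells, and P1 was level with E16.5 at a ratio of 1.01 (0.806 to 1.26). Of neighbours in rank, E14.5 and E12.5, the lowest pair, were the sole ones to be separated. Gng13-high cells showed 11.02 CPM at E12.5, 18.2 CPM at E14.5, 23.5 CPM at E16.5, 24.0 CPM at E18.5, 23.5 CPM at P1 and 35.2 CPM at P5. The ratio of Gng13-high to Gng13-low was 2.32 at E12.5 (interval 1.64 to 3.28), 2.24 at E14.5 (interval 1.75 to 2.91), 1.90 at E16.5 (interval 1.68 to 2.16), 2.31 at E18.5 (interval 1.70 to 3.16), 1.88 at P1 (interval 1.43 to 2.47) and 3.10 at P5 (interval 2.47 to 3.89). Without cells that pass the epithelial gate the Gng13-low to Gng13-high ratio of Irx5 at P1 was 0.763, against 0.532 with them. At E12.5, leaving out cells with a Y-linked or Pax8 UMI moved this ratio from 0.432 to 0.526 for Irx5, no longer past 2-fold. For Irx3 it moved from 0.322 to 0.393, still past 2-fold.

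At E11.5 both Irx genes were higher in stroma than in pregranulosa cells. The stromal gate took in 49.7% of the E11.5 and 28.1% of the E12.5 library, and 2 of 4 stromal markers were highest in it at E11.5. Whether it caught the same kind of cells at both ages was not tested. Irx3 was at 63.3 CPM in stroma and 13.9 in pregranulosa cells, and Irx5 at 37.0 and 8.97. From E12.5 on the stromal levels were at most 4.96 and 0.283, and the ratio of pregranulosa cells to stroma for Irx3 lay between 51.4 (36.9 to 73.8) at E14.5 and 106 (72.3 to 160.3) at P1. In epithelium both were lowest at E12.5, on 6 and 2 UMIs, and highest at P5. Irx3 there was at 9.66 CPM at E11.5, 5.07 CPM at E12.5, 54.4 CPM at E14.5, 160.2 CPM at P1 and 281 CPM at P5, and Irx5 at 5.11 CPM at E11.5, 1.69 CPM at E12.5, 12.9 CPM at E14.5, 22.1 CPM at P1 and 42.5 CPM at P5. Endothelial cells had Irx3 too, with 66.8 CPM in the 74 cells at E14.5.

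Klf4 (ENSMUSG00000003032, chromosome 4, 55527143 to 55532466) varied between libraries more than between pregranulosa groups. Gng13-low cells had 26.8 CPM at E11.5, 102 CPM at E12.5, 358 CPM at E14.5, 57.1 CPM at E16.5, 524 CPM at E18.5, 155 CPM at P1 and 82.4 CPM at P5. The Gng13-high cells had 129.7 CPM at E12.5, 320.3 CPM at E14.5, 88.7 CPM at E16.5, 536 CPM at E18.5, 169.9 CPM at P1 and 83.5 CPM at P5. E18.5 and E14.5 were the highest libraries in both, and the ratio of the groups lay between 0.643 (0.605 to 0.683) at E16.5 and 1.12 (1.07 to 1.17) at E14.5. Stroma had the same 2 high libraries, with 117 and 93.3 CPM against 10.8 to 34.4 elsewhere.

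A dissociation response was measured beside Klf4. The sum of 12 such genes (Fos, Fosb, Jun, Junb, Jund, Egr1, Atf3, Ier2, Dusp1, Zfp36, Hspa1a and Hspa1b) in Gng13-low cells was 5187 CPM in the E14.5 library, 3748 in the E16.5, 9590 in the E18.5 and 10473 in the P1 library. Trypsin was applied for 20 min to the earliest pair of libraries, 40 min to E14.5 and E16.5, 60 min to E18.5 and 80 min to both libraries after birth. E14.5 and E16.5 shared their trypsin time and had 358 and 57.1 CPM of Klf4, while in these cells P1 had the highest sum and 155. The part of dissociation in the Klf4 levels was not tested, and age, library and preparation cannot be told apart.

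**Figure D3:**
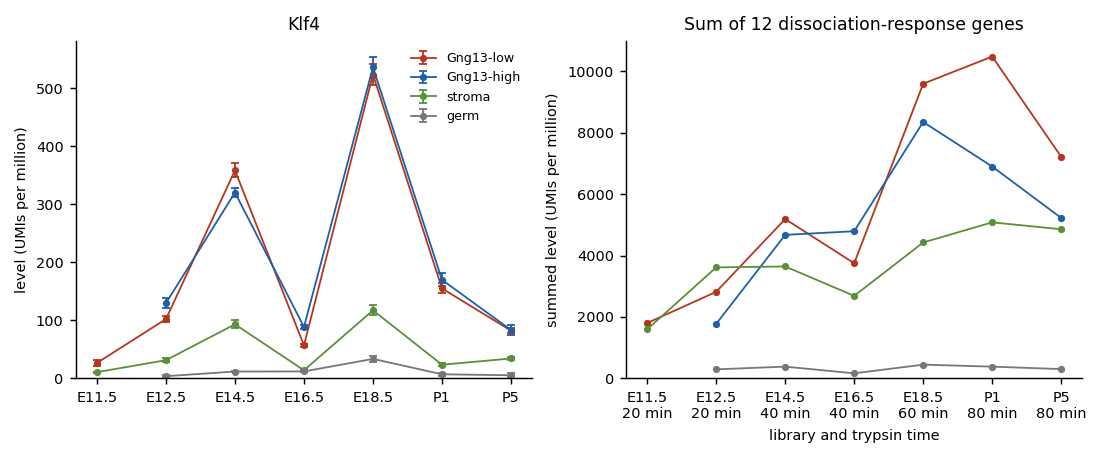
Klf4 level (CPM, 95% Poisson intervals) and summed level of 12 dissociation-response genes (CPM) by library in Gng13-low and Gng13-high pregranulosa cells, stroma and germ cells, with the trypsin time in minutes. Klf4 stood at 524 in Gng13-low cells at E18.5 and 358 at E14.5, and the summed level was highest at P1 in Gng13-low cells, with 10473, and at E18.5 in Gng13-high cells, with 8344.

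Counted over the members, calls between the pregranulosa groups were set beside those of all genes. A gene is called when one level is at least 2-fold the other, among genes with at least 5 CPM in the pooled groups, and a count of 0 enters as 3 UMIs. In the libraries from E12.5 to P5 in order, 0, 1, 2, 2, 3 and 3 members were higher in Gng13-low cells, of 6, 6, 7, 7, 8 and 8 measured, beside 5.72%, 2.16%, 6.16%, 4.19%, 5.47% and 7.5% of all genes. They were Foxl2, Nr5a2 and Esr2. In the same order, 2, 1, 1, 2, 1 and 2 members were higher in Gng13-high cells, beside 0.522%, 1.46%, 2.85%, 3.82%, 3.99% and 6.45% of all genes, and these came from Irx3, Irx5 and Esr1. Irx5 at E12.5 was no longer past 2-fold without cells that carried a Y-linked or Pax8 UMI. Irx3 at E16.5, with a Gng13-low to Gng13-high ratio of 0.475, was past 2-fold in 8 of 14 alternative settings. Its ratio ranged there from 0.266 to 0.545. Summed over libraries, 11 and 9 of 42 pairs of a member and a library were called, and 15 and 9 of 48 when members under that level are counted too. No share of all genes was computed for these sums. The shares above are per library and for genes with at least 5 CPM, so they do not match the 48 pairs. The members were chosen with earlier results of these data known, so their share is no independent evidence.

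**Figure D4:**
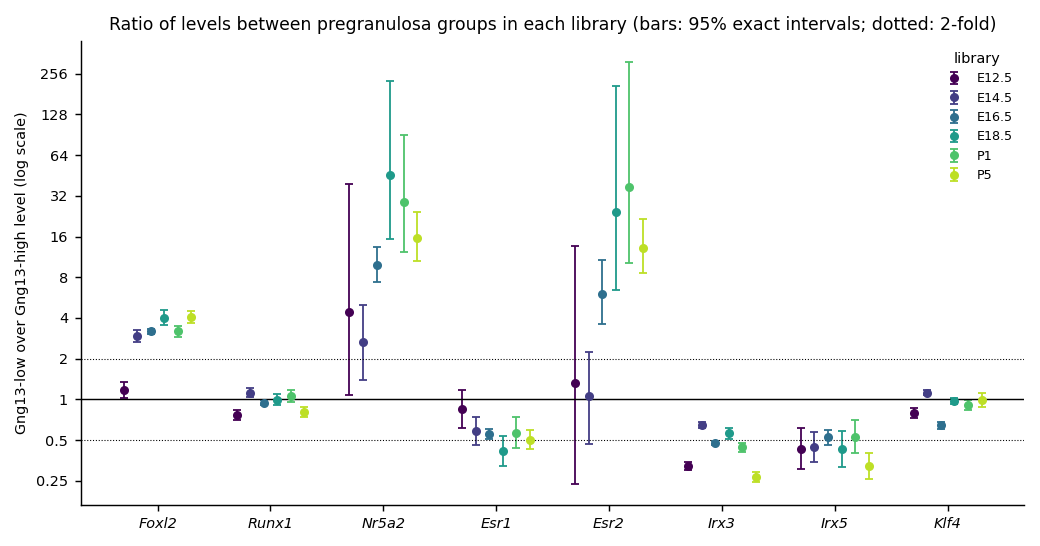
Ratio of the level in Gng13-low to that in Gng13-high pregranulosa cells (vertical axis, log scale) for each gene in 6 libraries, with exact 95% intervals and lines at 1 and at 2-fold. Foxl2 lay between 1.17 and 4.08, Irx3 between 0.268 and 0.651, and Runx1 and Klf4 stayed within 2-fold.

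From E12.5 to P5, 5 of 8 members were at least 2-fold higher in pregranulosa cells as a whole, beside 8.54% of all genes, and 0 were at least 2-fold lower, beside 5.92%. Esr2 was higher 112-fold (58.5 to 245) and Nr5a2 58.5-fold (39.1 to 91.7). Foxl2 was higher 6.24-fold (5.85 to 6.66), Esr1 3.96-fold (3.37 to 4.67) and Irx5 2.57-fold (2.11 to 3.13). Runx1 had a ratio of 1.19 (1.13 to 1.26), Irx3 of 0.778 (0.740 to 0.819) and Klf4 of 0.730 (0.685 to 0.778). The mix of cells changed as well, since 459 of 1649 cells were Gng13-high at E12.5 and 313 of 1821 at P5. Without cells that passed another gate the Irx3 ratio was 0.466, past 2-fold lower, and that of Irx5 1.80, no longer past 2-fold. Without those that passed the epithelial gate the ratios were 0.497 and 1.95, with the same effect on both calls. The folds of Nr5a2 and Esr2 rest on 24 and 9 UMIs at E12.5. Without cells that passed another gate they were 163 and 314, on 8 and 3 UMIs, and after thinning that of Nr5a2 was 221, on 1 UMI.

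Amh, anti-Müllerian hormone, marks granulosa cells of growing follicles and was used to divide P5 pregranulosa cells. Cells with at least 3 Amh UMIs (177 cells, median 11807 UMIs) were set against cells with none (1355 cells, median 8126). Nr5a2 was at 144 CPM with Amh and 37.0 without, 3.89-fold (3.37 to 4.48) higher, and Esr2 at 85.2 and 30.5, 2.79-fold (2.34 to 3.32) higher. These 2 of 8 members passed 2-fold, beside 3.65% of all genes. Irx3, at 20.8 and 166, was 8.02-fold (6.01 to 10.9) lower with Amh, Irx5 3.44-fold (2.02 to 6.37) and Esr1 2.74-fold (1.93 to 4.02), which makes 3 of 8 beside 10.9% of all genes. The ratio was 0.653 (0.562 to 0.755) for Runx1, 0.722 (0.603 to 0.857) for Klf4 and 1.20 (1.11 to 1.30) for Foxl2.

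Gng13 also differed between these cells, at 11.48 CPM with Amh and 341 without. Within Gng13-low cells alone, a comparison added after seeing the data, 172 cells were set against 981. Nr5a2 was then 2.60-fold higher, at 146 against 56.1 CPM, and Esr2 1.89-fold (1.58 to 2.25), while Irx3 was 5.04-fold (3.71 to 7.01) lower, Irx5 2.54-fold (1.40 to 5.05) and Esr1 2.12-fold (1.47 to 3.14). Foxl2 turned to 345 CPM with Amh against 388 without, a ratio of 0.889 (0.820 to 0.963). Without cells that passed another gate the Foxl2 ratio was 0.887 and that of Esr2 1.96, so that Nr5a2 alone stayed past 2-fold higher there and in Gng13-low cells.

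**Figure D5:**
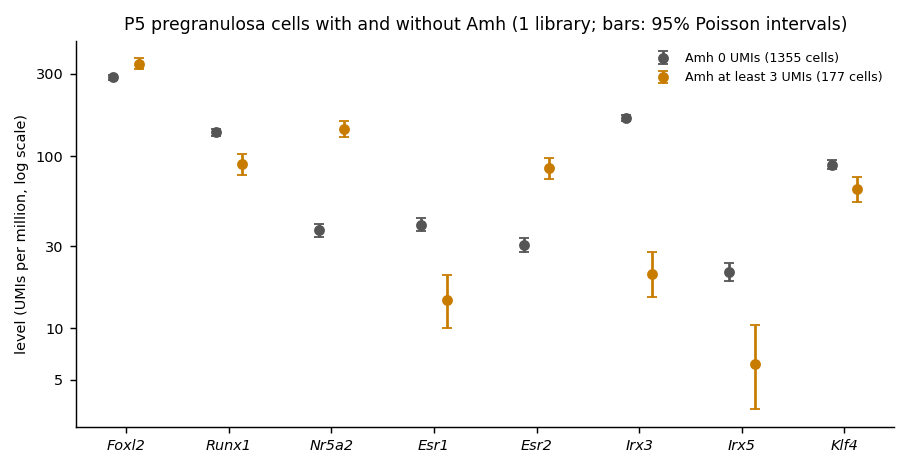
Levels of the 8 genes at P5 (vertical axis, CPM, log scale) in pregranulosa cells with 0 and with at least 3 Amh UMIs, with 95% Poisson intervals. Nr5a2 and Esr2 were higher with Amh, at 144 and 85.2, and Irx3, Irx5 and Esr1 were lower, at 20.8, 6.18 and 14.6.

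Against stroma and germ cells the members that reached 5 CPM were mostly on the pregranulosa side. Against stroma, 35 of 45 pairs of a member and a library were at least 2-fold higher in pregranulosa cells, beside 13.2% of pairs of any gene and a library. Against germ cells it was 41 of 42 pairs, Esr1 at P5 being the other one, beside 32.2% of pairs of any gene and a library. Nr5a2, which was higher in germ cells at E12.5 and E14.5, stood under 5 CPM in the pooled groups there and is not among these pairs. Against epithelium it was 15 of 32 pairs, with 1 of 4, 5 of 6, 4 of 6, 2 of 8 and 3 of 8 members in the E11.5, E12.5, E14.5, P1 and P5 libraries, beside 8.57%, 12.2%, 13.8%, 14.2% and 13.5% of all genes. At P5 Irx3 and Irx5 were lower in pregranulosa cells than in epithelium, with ratios of 0.468 (0.389 to 0.568) and 0.410 (0.256 to 0.701). The pregranulosa side of each comparison with stroma, germ cells or epithelium includes cells that also passed the gate of that class.

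Cells with Y-linked UMIs were compared with cells that had Xist, the RNA of the inactive X chromosome, and no Y-linked UMI. At E11.5 Foxl2 was at 1.59 and 3.44 CPM, on 3 and 9 UMIs, which does not separate them. Klf4 was higher in the cells with Y-linked UMIs by a ratio of 2.17 (1.49 to 3.19), and Irx5 by 2.26 (1.17 to 4.50). In the E12.5 library Foxl2 was at 8.64 and 53.9 CPM, a ratio of 0.160 (0.0976 to 0.249). Irx3 had a ratio of 0.160 (0.124 to 0.203) there, Esr1 of 0.182 (0.0491 to 0.474), Irx5 of 0.172 (0.0351 to 0.512) and Runx1 of 0.514 (0.429 to 0.611). Klf4 had a ratio of 1.38 (1.23 to 1.55), and Nr5a2 and Esr2 had at most 4 UMIs in the cells with Y-linked UMIs. The other 5 members were thus lower in the E12.5 cells with Y-linked UMIs, in which Sox9, the Sertoli cell factor, was at 295 CPM against 33.5.

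Relatives and partners of the members were described from 3 lists. Of 22 family members (other Irx, Runx, Klf, Foxo and nuclear receptor genes and Cbfb), 12 were measured at P5, with 3 at least 2-fold higher in Gng13-low and 2 in Gng13-high cells, beside 7.5% and 6.45% of all genes, and a median log2 ratio of -0.16, against 0.05 for all genes. Of 21 other factors of the supporting lineage, 16 were measured, with 4 and 2 in the same order, beside the same shares of all genes. Lhx9, a factor of the gonadal surface, was 4.98-fold (4.44 to 5.60) higher in Gng13-high cells at P5. Sox9 was among the 3 largest ratios on the Gng13-low side at E12.5, at 3.72 (3.12 to 4.45), and again at E14.5 and E16.5. Without cells with a Y-linked or Pax8 UMI, which were unequally shared between the groups at E12.5, the Sox9 ratio was 1.72 (1.39 to 2.14) at E12.5, below 2-fold, 2.22 (1.95 to 2.52) in the E14.5 and 3.69 (3.16 to 4.33) in the E16.5 library. Klf5 led the family members on the Gng13-high side at P1, with 4.46-fold (3.01 to 6.73).

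The third list held granulosa cell products. Of 21, 19 were measured at P5, 11 were at least 2-fold higher in Gng13-low and 4 in Gng13-high cells, beside 7.5% and 6.45% of all genes, and the median log2 ratio was 1.94, against 0.05 for all genes. At P1 it was 5 and 3 of 16, beside 5.47% and 3.99%. Hsd17b1, an enzyme of estrogen synthesis, was 108-fold (29.8 to 894) higher in Gng13-low cells at P5, Amh 40.03-fold (23.3 to 75.4) and Inhba, a subunit of inhibin and activin, 15.0-fold (6.31 to 46.5). On the Gng13-high side, Lgr5, a receptor of R-spondins, was 58.7-fold (44.1 to 79.9) higher and Aldh1a2, a retinoic acid enzyme, 5.31-fold (4.91 to 5.75). Aldh1a2 is also among the epithelial markers used above, and 57.8% of Gng13-high cells passed the epithelial gate at P5. None of the 3 lists was recomputed without such cells. Akr1c14, a steroid-metabolising enzyme, was the largest Gng13-low ratio at E14.5, E16.5 and E18.5, from 6.07 (5.08 to 7.28) to 8.86 (7.51 to 10.5).

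Over development, 7 of 19 products were at least 2-fold higher at P5 than at E12.5 and 3 lower, while of the supporting lineage factors 0 were higher and 7 of 17 lower, beside 8.54% of all genes higher and 5.92% lower. Nr2f1, an orphan nuclear receptor, was 7.91-fold (5.93 to 10.7) lower. In P5 cells with Amh, Hsd17b1 was 7.19-fold (5.98 to 8.65) higher and Inhbb, another inhibin subunit, 5.64-fold (4.90 to 6.50), and Lgr5 was 57.1-fold (19.5 to 278) lower. Of 19 products 6 were higher with Amh, which includes Amh itself, and 5 lower, beside 3.65% and 10.9% of all genes.

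Over 30 groups of a class and a library, the genes whose log2 levels ran most like a member were found by Pearson's r among 10733 genes. The groups share libraries, so r is a description. For Foxl2 they were Layn (0.940), Pcsk6 (0.935) and Gas6 (0.928), and for Runx1 Serpinb6b (0.967), Kctd14 (0.960) and Il10rb (0.956). Nr5a2 had Slc18a2 (0.865), Bmp3 (0.862) and Ly6g6e (0.809) and Esr2 had Chst9 (0.928), Metrnl (0.890) and Ly6g6e (0.881), so that Ly6g6e was named for both late receptors. Esr1 ran with Ltbp3 (0.866), Pdzd2 (0.864) and H6pd (0.844), Irx3 with A230005M16Rik (0.932), Acsbg1 (0.932) and Smpx (0.926) and Irx5 with Irx3 (0.884), Limch1 (0.856) and Mettl26 (0.833), its chromosomal neighbour first. Klf4 ran with Egr2 (0.926), Nrn1 (0.903) and Crip3 (0.901), of which Egr2 is an immediate early gene.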

How the data were processed

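The authors deposited UMI counts per gene and cell, made with Cell Ranger 3.1.0 on the mm10 reference (3.0), and these counts were used as deposited. The paper gives v2 chemistry for the libraries. Whether this holds for the E16.5 library, whose barcodes were rarely shared with the others, was not tested. Cells with at least 200 genes were kept. Levels are summed counts scaled to 1000000 with exact Poisson intervals, ratios have exact intervals conditional on the sum of both counts, and shares have exact binomial intervals. PCR and capture were not modelled, and intervals cover counting error only. A count of 0 enters a ratio as 3 UMIs, and no ratio was made where both counts were at or under 3. For shares, cells were thinned to 2000 UMIs with seed 1, and shallower cells were left out. Doublets were kept, and an alternative left out the 5% of cells with the highest Scrublet scores in each library. The code for ratios and intervals was tested on simulated data. The 8 members, the gates and the gene lists were chosen with earlier results of these data known. List genes were named when among the 3 largest ratios in either direction of a comparison, and for each member the 3 genes with the highest Pearson's r of log2(CPM + 5) were named, among genes reaching 20 CPM in a group, over groups of at least 50 cells. Positions are from the GENCODE annotation of GRCm38, and upstream sequences and starts from RefSeq. Windows that overlap an annotated exon are not printed. Python 3.11.15, numpy 2.4.6, scipy 1.17.1, pandas 2.3.3 and scanpy 1.11.5 were used.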

Additional observations from a re-analysis of the deposited data

Results flagged for a closer look

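Runx1 and Klf4 went in opposite directions between the pregranulosa groups in different libraries, each time outside the counting interval. The ratio of Gng13-low to Gng13-high was 1.12 at E14.5 and 0.764 at E12.5 for Runx1, and 1.12 at E14.5 and 0.643 at E16.5 for Klf4. The difference was not tested, because each age is 1 library.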

How the results depend on the processing

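The counts of called members and each member's ratios between the Gng13 groups, between E12.5 and P5 and between the Amh groups were recomputed under 12 alternatives to the gates, cell filters, genes in the denominator and depth, and under 3 chosen after seeing the data (without cells that pass the epithelial gate, without Y-linked or Pax8 UMIs, and within Gng13-low cells for the Amh comparison). Without cells that pass another gate, 1 member (Irx3) was at least 2-fold lower at P5 than at E12.5 in place of 0, and 1 member (Nr5a2) in place of 2 was at least 2-fold higher with Amh. Without cells that pass the epithelial gate the first count was 1 (Irx3) as well, and within Gng13-low cells the second was 1 (Nr5a2). In both settings without other gated cells Irx5 was no longer past 2-fold higher at P5. Of the Amh ratios, Esr1 was 0.133 after thinning, on 2 UMIs with Amh, and Irx5 lay between 0.174 (Wnt6 and Kitl at least 5 UMIs) and 0.443 (without cells that pass another gate). The levels, shares, list counts, likeness of genes, the split of stroma by Foxl2 and the Y-linked comparison were not recomputed under these settings, except where the text gives a value. The other counts of members were recomputed without the floor of 5 CPM in the pooled groups, and stayed within 1.5 times their main value without that floor. The counts with the floor, between the Gng13 groups and against stroma, epithelium and germ cells, were not recomputed. Of 48 ratios of Gng13-low to Gng13-high, taken without that floor, 24 were past 2-fold, and no share of all genes was computed beside them. Of these, 24 kept their direction under each alternative that gave a value, and 17 stayed past 2-fold in each. Irx3 at E16.5 stayed past 2-fold in 8 of 14 alternatives, the fewest. The Foxl2 ratio at P5 ranged from 1.54 (without cells that pass the epithelial gate) to 6.68 (Gng13 0 against 5 or more UMIs). The cause of these shifts was not tested. No paired analysis was possible because each age is 1 library, and for the same reason no replicate could be left out. Depth limits Nr5a2, Esr2 and Irx5 most, with 2 UMIs of Nr5a2 in Gng13-high cells at E12.5.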
